A study of Mus musculus with 6 samples.

Results

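The E2F transcription factors E2f1 to E2f8 and the Rb-type pocket proteins Rb1 and Rbl1 were followed in RNA sequencing of mouse colon. They are 10 of the 27202 genes in the deposited table and were found by their gene symbols. All 10 passed the filter on low values, a mean of 10 or more normalized counts over the libraries, as did 16246 genes in all, which were tested. The family was selected on the difference between the genotypes in these same libraries, which was already known when it was chosen. The cKO to WT differences of the members are therefore given as a description, without a p-value for any single member. Counts of members past a threshold are also only a description.

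The 3 libraries labelled cKO came from mice in which Cre under the Villin promoter deletes floxed *Nedd4l* from intestinal epithelial cells (*Nedd4l* fl/fl Villin Cre). The 3 labelled WT came from littermates, which by the series' design text carry the same floxed alleles without Cre (*Nedd4l* fl/fl). All mice were 8 to 10 weeks old, drank 2% dextran sulfate sodium (DSS), a polysaccharide that injures the colonic epithelium, and were sampled on day 7. No library without DSS was analysed here, and the RNA came from whole colon, in which stromal and immune cells are not targeted by the Cre. Labels do not state whether a library is 1 mouse, so the spread between libraries may be partly technical.

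E2F factors bind DNA together with a DP partner and control genes that a cell needs to enter S phase and copy its DNA. E2f1, E2f2 and E2f3 are activators and are held inactive by Rb1 until cyclin-dependent kinases phosphorylate it. E2f4 and E2f5 act mostly with the pocket proteins Rbl1 and Rbl2 in the DREAM complex, which silences cell cycle genes in resting cells, and E2f6 represses through a Polycomb complex without pocket proteins. E2f7 and E2f8 are atypical members that bind DNA without a DP partner, are themselves made in S phase and repress E2F target genes. In the colon, dividing cells lie mainly in the lower crypt, although activated lymphocytes and stromal cells also divide after injury.

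The promoters of the members are shown first because several carry the DNA word that E2F factors recognize, while *E2f8* carries the word of G2/M promoters. RefSeq promoter sequences (GRCm38.p6, 250 bases before to 50 bases after a start site) were at hand for 7 of the 10 members. *E2f4*, *E2f5* and *Rb1* were not among them. The E2F words searched, on both strands, were TTTGGCGC, TTTCGCGC, TTTCCCGC and TTTGCCGC. One or more of them stood in 4 of the 7 members (*E2f2*, *E2f3*, *E2f7* and *Rbl1*) and in 2.60% of the 27025 genes with a promoter. The second word was TTTGAA, the CHR element at which the DREAM complex binds G2/M genes, which stood in 20.2% of all genes and in *E2f3*, *E2f8* and the second of the *E2f2* promoters. These words do not overlap each other in the stretches below. Each stretch runs 5′ to 3′ on the strand of its gene, in lower case, with a matching word in capitals, and the reverse complement of a word counts as a match.
E2f3, minus strand, chr13:29986064-29986163, the 100 bases before the start: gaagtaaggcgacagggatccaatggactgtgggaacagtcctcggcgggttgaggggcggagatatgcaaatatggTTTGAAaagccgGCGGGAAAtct
E2f7, plus strand, chr10:110745209-110745308, beginning 230 bases before the start: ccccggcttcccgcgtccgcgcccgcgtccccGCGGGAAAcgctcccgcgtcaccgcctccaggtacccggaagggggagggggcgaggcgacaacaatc
E2f8, minus strand, chr7:48881597-48881696, the 100 bases before the start: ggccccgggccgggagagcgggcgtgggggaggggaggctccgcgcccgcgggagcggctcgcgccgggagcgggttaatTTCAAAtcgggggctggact
Rbl1, minus strand, chr2:157204535-157204634, the 100 bases before the start: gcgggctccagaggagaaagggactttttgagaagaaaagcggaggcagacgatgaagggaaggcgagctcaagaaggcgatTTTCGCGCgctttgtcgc
E2f2, plus strand, chr4:136172294-136172323, with the word at +40, counting the start as +1: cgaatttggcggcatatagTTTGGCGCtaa

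*E2f3* carries both words close to its start, with the E2F word at -11 and the CHR word at -23, counted as bases before the start. The *E2f8* stretch holds a CHR word at -20 and none of the E2F words. The *E2f1* window held neither word. That RefSeq window lies inside the span that the table gives for *E2f1*, so the outermost start of the gene was not covered. A match is a run of letters and not proof of binding.

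Library totals were close, from 15530711 to 16488596 normalized counts, and the smallest value above 0 in a library was between 0.900 and 1.11. The targeted gene followed the labels, with *Nedd4l* at 476, 942 and 566 normalized counts in cKO1, cKO2 and cKO3 and at 1241, 1271 and 1266 in WT1, WT2 and WT3. Over all tested genes the cKO2 library correlated more with the WT libraries (mean r = 0.977) than with its own genotype (0.966). At an adjusted p under 0.05 from limma, 0 genes were lower (0%) and 0 higher (0%) in cKO. An unadjusted p under 0.05 was reached by 1151 genes with lower values (7.08%) and by 1122 with higher values (6.91%). All 3 cKO libraries lay below all 3 WT libraries for 10.9% of genes and above them for 10.5%. The median log2 difference over all tested genes was 0.0013. All 14 epithelial markers passed the filter, and their sum was 230542 to 287156 in cKO and 264511 to 291984 in WT. Taken singly, 12 of them had a log2 difference below 0 and 2 above it, with a median of -0.14. Each of the 14 overlapped between the genotypes.

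All 10 members had a log2 difference below 0 and 0 had one above it, although that of *Rb1* was near 0. The cKO libraries lay below all WT libraries for 5 of 10 members (*E2f1*, *E2f4*, *E2f7*, *E2f8* and *Rbl1*), beside 10.9% of all genes, and above them for 0. An unadjusted p under 0.05 was reached by 5 of 10 with lower values, beside 7.08% of all genes, and the adjusted threshold by 0. Their median log2 difference was -0.27. The choice of the family used this contrast, so nothing is read from these counts.

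**Figure D1:**
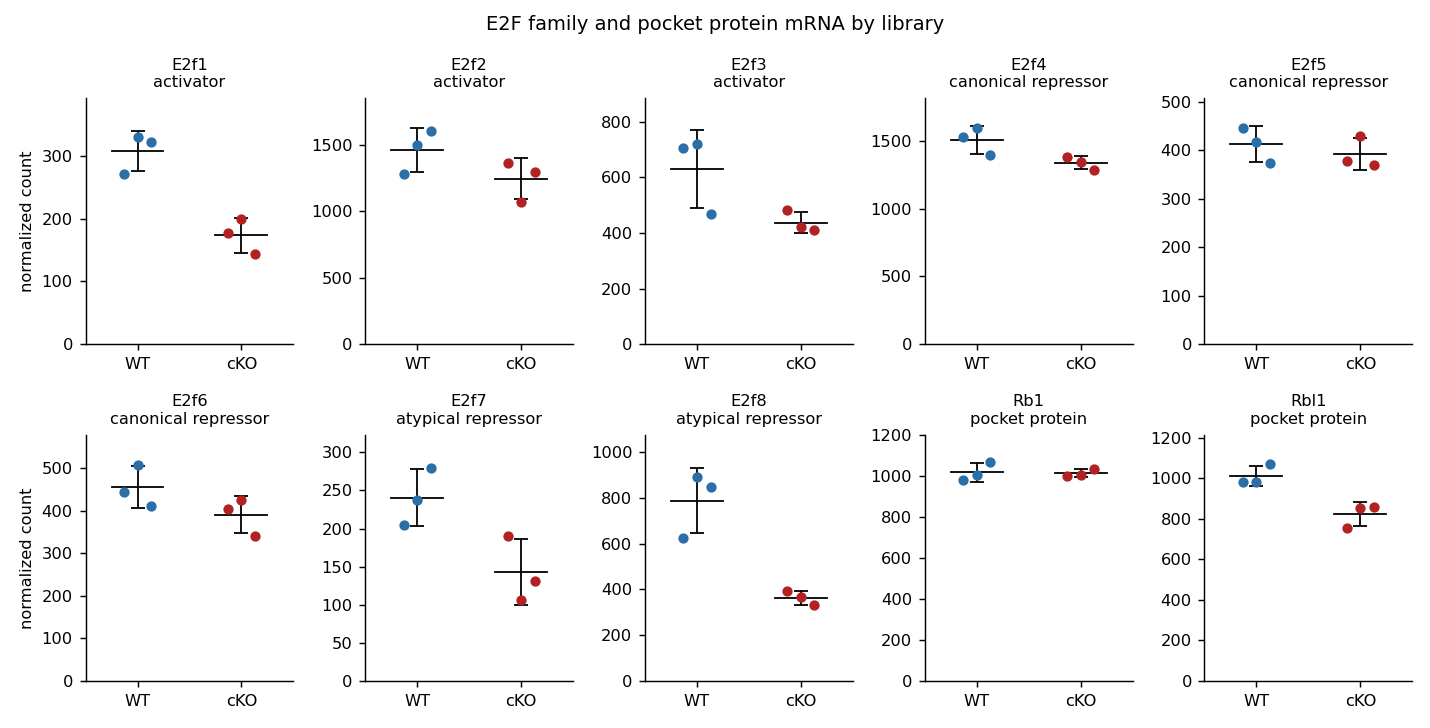
Normalized counts of each member (vertical axes from 0) in the 3 WT (blue) and 3 cKO (red) libraries, with the mean and SD as lines and bars. *E2f8* and *E2f1* show the 2 genotypes well apart, and *Rb1* shows them on top of each other.

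Among the activators, *E2f1* differed most. It is the member best known for driving S-phase entry and, when in excess, apoptosis. *E2f1* (ENSMUSG00000027490, chromosome 2 from 154559407 to 154569892, minus strand, coordinates as in the table on GRCm38) stood at 177, 199 and 143 normalized counts in cKO1, cKO2 and cKO3 and at 271, 330 and 323 in WT1, WT2 and WT3. Every cKO library was below every WT library. Mean levels in cKO and WT were thus 173 ± 28.0 and 308 ± 32.4 (SD, n = 3 each), with a log2 difference of -0.83 (standard error 0.17), so that cKO was at 56.3% of WT.

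*E2f3*, another activator of S-phase genes, had 483, 421 and 409 normalized counts in cKO1, cKO2 and cKO3 and 707, 719 and 469 in WT1, WT2 and WT3. The WT libraries were split, since WT3 lay between cKO1 and cKO2 while WT1 and WT2 were far above, and the log2 difference was -0.50 (standard error 0.17). Without WT3 the *E2f3* difference was -0.71 and without WT2 it was -0.40. The table counts reads per gene, so the long form *E2f3a* and the short form *E2f3b*, which start at separate promoters, were not separated.

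*E2f2*, the activator also known from red cell and lymphocyte proliferation, was the most highly expressed of the 3. Its normalized counts were 1367, 1072 and 1299 in cKO1, cKO2 and cKO3 and 1281, 1501 and 1605 in WT1, WT2 and WT3. The genotypes overlapped, with WT1 below cKO1 and cKO3, and the log2 difference was -0.23 (standard error 0.12). It was -0.13 without cKO2 and -0.32 without WT1 for *E2f2*.

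The canonical repressors showed the smaller differences. *E2f4* is the main E2F of resting and differentiated cells and also of the DREAM complex. *E2f4* had 1384, 1343 and 1286 normalized counts in cKO1, cKO2 and cKO3 and 1525, 1593 and 1392 in WT1, WT2 and WT3. The groups did not overlap, but the highest cKO library and the lowest WT library were 1384 and 1392, and the log2 difference was only -0.17 (standard error 0.083).

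*E2f5*, the close relative of *E2f4*, ranged from 370 to 430 normalized counts in cKO and from 373 to 446 in WT, with a log2 difference of -0.070 (standard error 0.12). *E2f6*, the Polycomb-linked repressor, ranged from 341 to 426 in cKO and from 411 to 508 in WT, with a log2 difference of -0.22 (standard error 0.13). Both genes overlapped between the genotypes. Leaving out 1 library moved *E2f6* to -0.13 without cKO3 and to -0.14 without WT2. It moved *E2f5* to between -0.14, without cKO2 or WT3, and -0.011, without WT1, with -0.045 without cKO1 and -0.029 without cKO3.

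Of the whole family, the atypical repressor *E2f8* had the largest difference. *E2f8* (ENSMUSG00000046179, chromosome 7 from 48866429 to 48881596, minus strand) stood at 392, 366 and 332 normalized counts in cKO1, cKO2 and cKO3 and at 625, 892 and 848 in WT1, WT2 and WT3. All cKO libraries were far below all WT libraries, and the spread was larger within WT. *E2f8* averaged 363 ± 30.0 in cKO and 788 ± 143 in WT (SD, n = 3 each), with a log2 difference of -1.10 (standard error 0.15), so that cKO was at 46.1% of WT. An antisense gene, *Gm2788*, shares 610 exonic bases with *E2f8* in release 21 of GENCODE. Whether counting used strand is not given in the sources used here. *Gm2788* itself was listed at 0.959 to 9.95 normalized counts in cKO and 12.8 to 16.2 in WT. These values do not tell how reads in the shared bases were assigned.

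*E2f7*, the partner of *E2f8*, had 191, 106 and 131 normalized counts in cKO1, cKO2 and cKO3 and 204, 238 and 280 in WT1, WT2 and WT3. The groups did not overlap, although cKO1 came close to WT1, and the log2 difference was -0.78 (standard error 0.24). Without cKO1 the *E2f7* difference was -1.01 and without cKO2 it was -0.59. *E2f7* had the largest spread of the members in cKO, with a coefficient of variation of 30.5%.

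The pocket proteins differed from each other. *Rbl1* encodes p107, a partner of E2f4 and E2f5 that dividing cells make. *Rbl1* had 753, 856 and 856 normalized counts in cKO1, cKO2 and cKO3 and 983, 980 and 1069 in WT1, WT2 and WT3. All cKO libraries lay below all WT libraries, with a log2 difference of -0.30 (standard error 0.090). *Rb1*, the retinoblastoma protein that holds the activators in check, had 999.8, 1007 and 1036 normalized counts in cKO1, cKO2 and cKO3 and 981, 1005 and 1069 in WT1, WT2 and WT3. The cKO values lay inside the WT range, and the log2 difference was -0.0051 (standard error 0.077), from -0.032 without WT1 to 0.031 without WT3. In GENCODE, *Rb1* shares 896 exonic bases with *Rcbtb2* and *Lpar6*, which lie on the other strand.

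**Figure D2:**
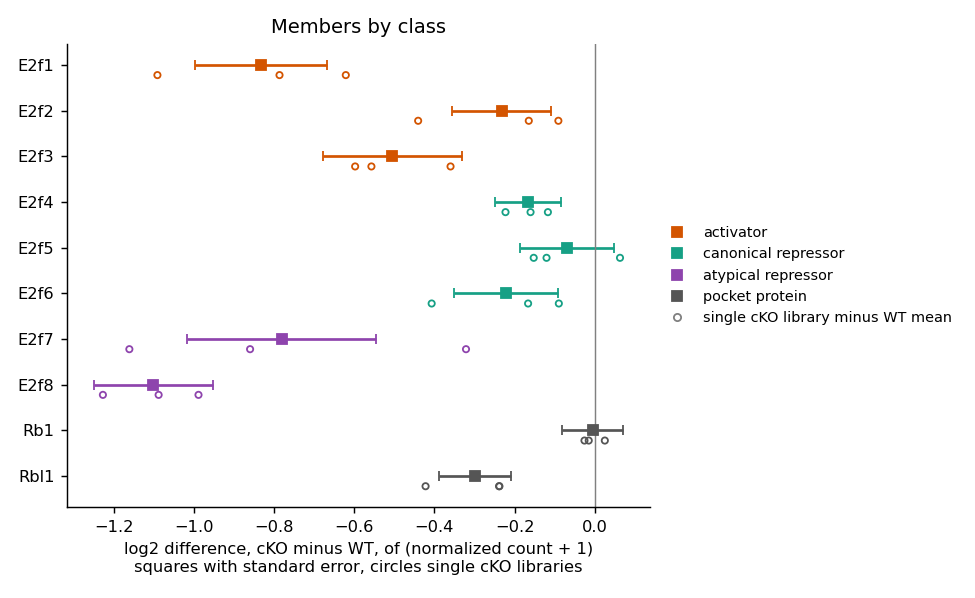
Log2 difference of cKO minus WT for each member (horizontal axis), colored by class, with the standard error as a bar and the 3 single cKO libraries, each minus the WT mean, as open circles. *E2f8*, *E2f1* and *E2f7* lie farthest to the left, from -1.10 to -0.78, and *Rb1* lies at 0.

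Activators were then set against repressors within each library, by the mean log2(normalized count + 1) of *E2f1*, *E2f2* and *E2f3* minus that of *E2f4* to *E2f8*. This difference was 0.17, 0.18 and 0.19 in cKO1, cKO2 and cKO3 and 0.26, 0.26 and 0.18 in WT1, WT2 and WT3, so the genotypes overlapped. The mean was 0.18 ± 0.013 (SD, n = 3) in cKO and 0.23 ± 0.048 (SD, n = 3) in WT. Activators as a group were lower by 0.52 on the log2 scale and repressors by 0.47, so the classes differed by nearly the same amount.

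The repressors were not uniform. The canonical repressors *E2f4*, *E2f5* and *E2f6* had a mean log2 level of 9.20 ± 0.10 (SD, n = 3) in cKO and 9.36 ± 0.12 (SD, n = 3) in WT, and the libraries overlapped. The atypical pair *E2f7* and *E2f8* stood at 7.82 ± 0.25 (SD, n = 3) and 8.76 ± 0.24 (SD, n = 3), without overlap. Against the canonical repressors alone, the activators were at -0.28, -0.48 and -0.36 in cKO1, cKO2 and cKO3 and at -0.10, 0.024 and 0.061 in WT1, WT2 and WT3. Against the atypical pair the order was the opposite, at 0.84, 1.18 and 1.02 in the cKO libraries and 0.81, 0.62 and 0.36 in the WT libraries. Both classes held members with large and with small differences, as *E2f1* at -0.83 and *E2f2* at -0.23 show for the activators.

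Levels of different genes were compared as normalized counts per kilobase of the exon length listed in the table. In WT the order was *E2f4* (613 ± 41.8), *E2f2* (299.5 ± 33.9), *E2f5* (232 ± 20.6), *Rb1* (169 ± 7.63), *Rbl1* (169 ± 8.51), *E2f8* (145 ± 26.3), *E2f3* (116 ± 25.9), *E2f1* (97.6 ± 10.3), *E2f6* (80.3 ± 8.70) and *E2f7* (26.7 ± 4.18 per kilobase, all SD, n = 3). Neighbors from *Rb1* down to *E2f6* overlapped between libraries, whereas *E2f4*, *E2f2*, *E2f5* and *E2f7* each stood clear of the next gene. In cKO the ends of the order were the same, with *E2f4* at 546 ± 20.05 and *E2f7* at 15.8 ± 4.83 per kilobase (SD, n = 3). *E2f8* was at place 6 in WT and at place 8 in cKO, where it overlapped with *E2f6* and *E2f1*. The resting-cell factor *E2f4* was thus the most abundant E2F message in both genotypes.

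The other genes of the pathway were taken from lists written from general knowledge. They share the contrast that chose the members and are described by counts. The G1/S list holds 55 genes for DNA replication and S-phase entry that E2F factors are known to control, and all 55 were tested. Of these, 54 had a log2 difference below 0 and 43 were lower at an unadjusted p under 0.05, beside 7.08% of all genes, while 0 were higher, beside 6.91%. For 43 genes all cKO libraries lay below all WT libraries, beside 10.9% of all genes. The median log2 difference was -0.55, and at an adjusted p under 0.05 from limma 0 genes passed in either direction. With limma's array weights, which count a library less the farther it lies from its group, 39 of the 55 were lower at an adjusted p under 0.05, beside 2.27% of all genes, but that weighting gave cKO3 a weight of 4.39 and the other 5 libraries weights between 0.414 and 1.34.

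*Uhrf1*, which brings the maintenance DNA methyltransferase to replicated DNA, had 1059, 865 and 848 normalized counts in cKO1, cKO2 and cKO3 and 1530, 1902 and 1938 in WT1, WT2 and WT3. Its log2 difference was -0.95 (standard error 0.13, adjusted p = 0.116 from limma). *Pole*, the catalytic subunit of the leading-strand polymerase, had 298 ± 50.7 (SD, n = 3) in cKO and 577 ± 44.7 (SD, n = 3) in WT, a log2 difference of -0.96 (adjusted p = 0.116 from limma). *Rfc3*, a subunit of the clamp loader, had 259 ± 4.09 and 423 ± 19.5, a log2 difference of -0.70 (adjusted p = 0.116 from limma). None of these 3 genes overlapped between the genotypes. The only list member above 0 was *Dbf4*, the activating subunit of the Cdc7 kinase, at 0.11.

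The G2/M list holds 39 genes of mitosis that the DREAM complex and its MuvB core regulate. It was balanced in sign, with 19 genes below and 20 above 0 and a median log2 difference of 0.0060. At an unadjusted p under 0.05, 2 were lower and 6 higher, beside 7.08% and 6.91% of all genes. All cKO libraries lay below all WT libraries for 4 genes and above them for 8, beside 10.9% and 10.5% of all genes. With limma's array weights, 0 of the 39 were lower and 6 higher at an adjusted p under 0.05. Over all 16246 genes those counts were 369 and 262, with the same large weight on cKO3. *Cdc25b*, a phosphatase that activates Cdk1, had 546, 561 and 659 normalized counts in cKO1, cKO2 and cKO3 and 413, 435 and 437 in WT1, WT2 and WT3, a log2 difference of 0.45 (adjusted p = 0.211 from limma). *Cdc20*, the activator of the anaphase-promoting complex, differed by 0.44 (adjusted p = 0.219 from limma) and the mitotic cyclin *Ccnb2* by 0.40 (adjusted p = 0.278 from limma), again without overlap. *Mki67*, the common marker of dividing cells, differed by only -0.10 (standard error 0.085). The sum of the G1/S list divided by that of the G2/M list in the same library, which does not depend on library size, was 0.980, 0.901 and 0.728 in cKO1, cKO2 and cKO3 and 1.20, 1.23 and 1.29 in WT1, WT2 and WT3. All cKO libraries were below all WT libraries. This ratio was not planned beforehand. The cyclin gene *Ccna2* is on both lists and so enters both sums. *Mki67* is on the G2/M list and alone gave 6963 of the 35582 normalized counts of that sum in WT1. The ratios to *Mki67* that follow therefore share this gene with the ratio of the sums.

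The members themselves were set against *Mki67* in the same way, a ratio chosen after seeing the data. *E2f8* stood at 65.6, 60.8 and 47.8 per 1000 normalized counts of *Mki67* in cKO1, cKO2 and cKO3 and at 89.8, 132 and 129 in WT1, WT2 and WT3. *E2f1* stood at 29.7, 33.1 and 20.7 and at 38.9, 48.9 and 49.1 per 1000. Both remained without overlap. *E2f7* overlapped on this scale, with 17.6 to 31.9 per 1000 in cKO and 29.4 to 42.5 in WT, as did *E2f4* with 185 to 232 and 212 to 236 and *Rbl1* with 123 to 142 and 141 to 163.

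**Figure D3:**
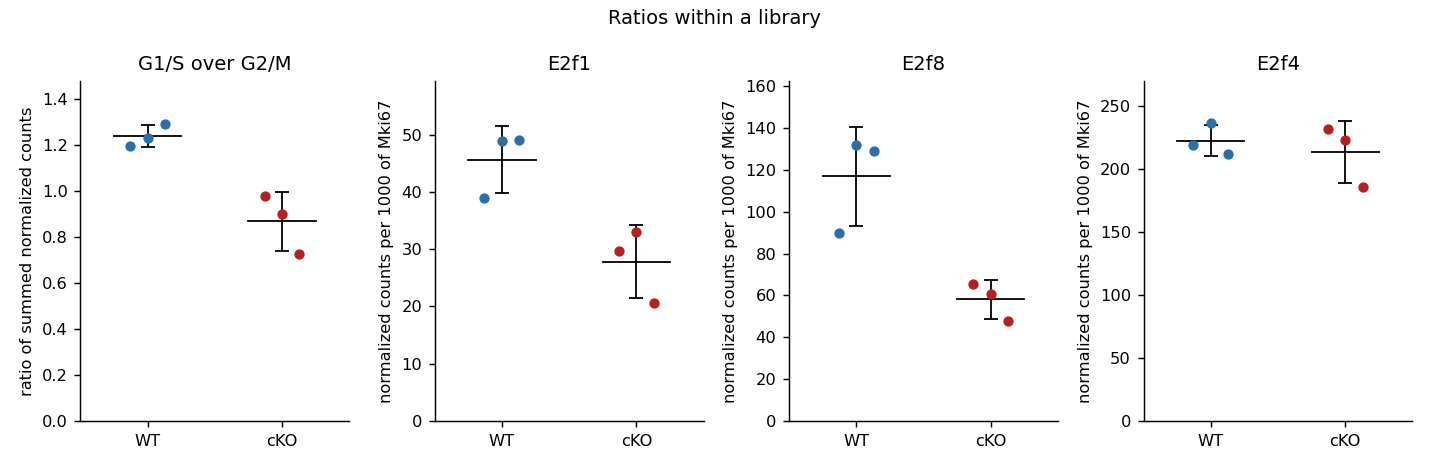
Ratios within a library for 3 WT (blue) and 3 cKO (red) libraries, with mean and SD, on axes from 0. The G1/S to G2/M ratio, *E2f1* and *E2f8* relative to *Mki67* are lower in every cKO library, and *E2f4* relative to *Mki67* overlaps.

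The remaining lists were small. Both DP partners were below 0, with *Tfdp1*, the main dimer partner of E2F factors, at 1908, 1679 and 1645 normalized counts in cKO1, cKO2 and cKO3 and at 2191, 2464 and 2098 in WT1, WT2 and WT3, a log2 difference of -0.37 (adjusted p = 0.226 from limma). *Tfdp2* differed by -0.19 (adjusted p = 0.469 from limma). The third pocket protein, *Rbl2*, which encodes p130 of resting cells, overlapped at 576 to 798 in cKO and 594 to 659 in WT (log2 difference 0.11, adjusted p = 0.725 from limma).

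Of 7 genes of the MuvB core and its partners, 6 were below 0 and 2 were lower at an unadjusted p under 0.05, beside 7.08% of all genes. *Mybl2*, an E2F target that joins MuvB in S phase, had 370, 244 and 275 normalized counts in cKO1, cKO2 and cKO3 and 381, 515 and 466 in WT1, WT2 and WT3 (log2 difference -0.62, adjusted p = 0.268 from limma). The histone-binding subunit *Rbbp4* differed by -0.17 (adjusted p = 0.337 from limma) and the mitotic factor *Foxm1* by -0.18 (adjusted p = 0.415 from limma). Of 17 tested cyclins, kinases and inhibitors upstream of Rb1, an unadjusted p under 0.05 was reached by 4 with lower values and by 0 with higher ones, beside 7.08% and 6.91% of all genes. Those with the smallest p were the S-phase cyclins *Ccne2* at -0.68 (adjusted p = 0.234 from limma) and *Ccne1* at -0.55 (0.314), themselves E2F targets, and their kinase *Cdk2* at -0.26 (0.310). The remaining gene of these 4 was the kinase *Cdk4* at -0.20 (adjusted p = 0.331 from limma), without overlap. The cyclin *Ccnd1*, which starts Rb1 phosphorylation, differed by -0.15 and overlapped. *Ccnd2* at -0.41, *Ccnd3* at -0.057 and the kinase *Cdk6* at -0.15 overlapped as well.

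Of 10 subunits of the E2f6 complex, 1 was lower at an unadjusted p under 0.05, beside 7.08% of all genes. This was *Wdr5* at -0.30 (adjusted p = 0.289 from limma). *L3mbtl2* was at -0.28 (0.376) and *Mga* at 0.20 (0.460). Germline genes that E2f6 silences were at the floor, with 6 of the 8 in the table and 0 passing the filter, and their sum was 13.4 to 25.9 normalized counts in cKO and 16.8 to 19.0 in WT. Of 8 tested apoptosis genes that E2F1 can induce, 2 had a log2 difference below 0 and 6 above it, with a median of 0.076. At an unadjusted p under 0.05, 0 of them were lower and 2 higher, beside 7.08% and 6.91% of all genes. *Apaf1*, the scaffold of the apoptosome, had 1796, 1119 and 1517 normalized counts in cKO1, cKO2 and cKO3 and 851, 892 and 927 in WT1, WT2 and WT3 (log2 difference 0.70, adjusted p = 0.211 from limma).

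**Figure D4:**
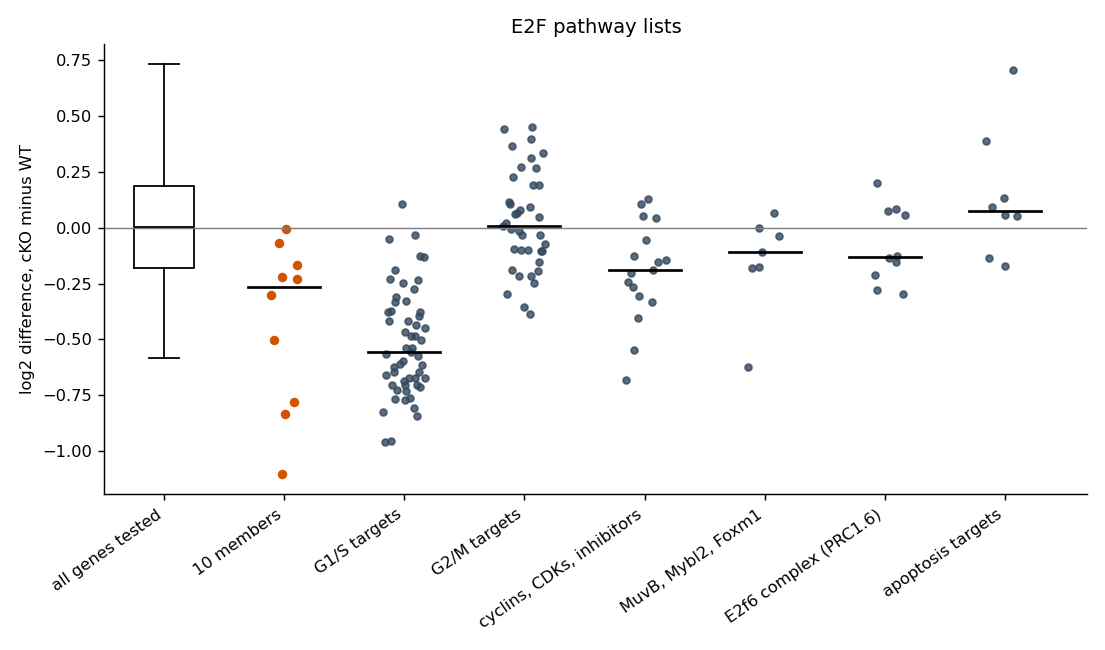
Log2 difference of cKO minus WT (vertical axis) for the 10 members and the tested genes of 6 pathway lists, with the median as a line, beside a box of all 16246 genes tested (whiskers at percentiles 5 and 95). The G1/S genes center on -0.55 and the G2/M genes on 0.0060.

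The promoter words split the 2 target lists. Of the G1/S genes with a promoter, 19 of 44 (43.2%) held an E2F word, against 1 of 34 (2.94%) in the G2/M list and 2.60% of all genes. The CHR word stood in 24 of the 34 (70.6%) G2/M genes and in 8 of the 44 (18.2%) G1/S genes. Within the G1/S list the median log2 difference was -0.69 for the 19 genes with an E2F word and -0.49 for the 25 without. The shares lower at an unadjusted p under 0.05 were close, at 16 of 19 (84.2%) and 20 of 25 (80.0%), beside 7.08% of all genes. Among all tested genes with a promoter, 88 of 487 with an E2F word (18.1%) were lower at an unadjusted p under 0.05, against 797 of 10970 without one (7.27%). For the CHR word the shares were 7.54% and 7.76%. With the members and all lists taken out, 67 of 458 genes with an E2F word were lower (14.6%) and 768 of 10844 without one (7.08%). The shares higher at the same threshold were 5.68% with an E2F word and 6.67% without one. Genes with and without a word were not matched for the base composition of their promoters.

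The protein-coding genes with a mean of at least 50 whose pattern over the 6 libraries was most like that of *E2f1* included *Tk1* (Pearson r = 0.991), *Cisd2* (0.991), *Txnl4a* (0.991) and *Msh6* (0.987), out of 11879 compared. With 6 libraries that share a difference between genotypes, high values of r are frequent among so many genes, and they are given as a description. *Tk1* and *Msh6* are on the G1/S list.

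Some markers of other cell types differed between the genotypes as well. The summed normalized counts of 6 fibroblast markers were 42446, 20966 and 22452 in cKO1, cKO2 and cKO3 and 18057, 10564 and 13330 in WT1, WT2 and WT3. Those of 6 myeloid markers were 8505 to 9376 in cKO and 5565 to 7571 in WT, and both sums were without overlap. Taken singly, only 3 of the 6 fibroblast markers (*Col1a1*, *Col1a2* and *Col3a1*) lay above all WT libraries in every cKO library. Of the 6 myeloid markers only 1 (*Lyz2*) did so, beside 10.5% of all genes. The other markers of these lists overlapped. The neutrophil sum was 8567 in cKO1 and 2947 to 3232 in the other 5 libraries, where *Ly6g* made up most of it. *Ly6g* itself leaned lower in cKO, opposite to the other neutrophil genes named here. It stood at 2486, 2832 and 2200 in cKO1, cKO2 and cKO3 and at 2829, 3136 and 3064 in WT1, WT2 and WT3. Its log2 difference was -0.27, and the genotypes overlapped. The neutrophil gene *S100a8* stood at 2708, 31.0 and 417 in cKO1, cKO2 and cKO3 and at 12.8, 38.7 and 29.0 in WT1, WT2 and WT3. *S100a9*, its partner, stood at 2680, 27.6 and 348 in the cKO libraries and at 15.8, 10.8 and 14.98 in the WT libraries, and *Cxcr2*, a chemokine receptor of neutrophils, at 181, 4.42 and 20.6 and at 0, 2.70 and 0. In cKO2, *S100a8* was thus within the WT range, while *S100a9* and *Cxcr2* were above it. Sums overlapped for epithelial, B and plasma (30531 to 42198 in cKO and 21509 to 40747 in WT), T cell (539 to 627 and 512 to 719), germinal center B (464 to 633 and 335 to 505), smooth muscle (5395 to 10588 and 4824 to 20465), endothelial (1446 to 2704 and 1061 to 1579) and enteric glia and neuron markers (80.7 to 327 and 103 to 202). Whole tissue does not tell fewer cells that express a gene from less RNA in each of them, and the part of cell composition in the differences of the members was not tested.

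**Figure D5:**
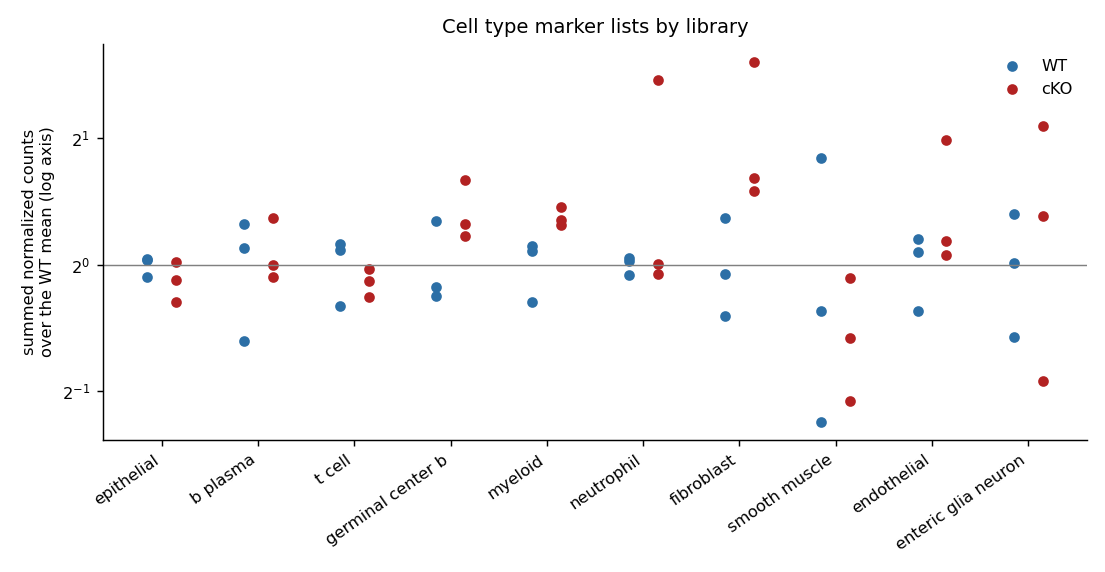
Summed normalized counts of 10 marker lists in each library divided by the WT mean of the list (vertical log axis), for WT (blue) and cKO (red). Fibroblast and myeloid sums are higher in every cKO library, and cKO1 stands apart in the neutrophil list, whose sum is mostly *Ly6g* in the other libraries.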

How the data were processed

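RNA of 6 colon libraries, 3 labelled cKO and 3 labelled WT, was analysed from 1 table. The authors deposited normalized counts, a signal in which the reads of a gene were scaled by a size factor of the library, together with the mean of each genotype, a log2 fold change, p-value and adjusted p-value of their own comparison, which were not used, and gene annotation. The submitters' processing notes name HISAT2 2.0.5, featureCounts 1.5.0-p3 and, for these mouse samples, the human build hg18. The identifiers are mouse, and all 10 members have the coordinates of GENCODE release 21 on GRCm38, as do 97.2% of matched genes.

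Tests used log2(normalized count + 1), a scale that understates differences of low genes, for genes with a mean of at least 10, with limma 3.58.1 in R 4.3.3 (trend and robust settings, Benjamini-Hochberg adjustment over 16246 genes, threshold 0.05). The fit was checked on simulated data with independent noise for each gene and library. That check holds no effects shared by the genes of a library and does not cover them. Members, lists and the ratios to *Mki67* were chosen with earlier results of these data known. The ratio of the G1/S to the G2/M sum and the comparisons by promoter word were not planned beforehand either. Named were all members, in each pathway list the 3 genes with the smallest p, *Nedd4l*, and the 5 genes most like *E2f1*, except for a few that are not reported here. *Mki67*, *Dbf4*, *Ccnd1*, *Ccna2*, *S100a8*, *S100a9*, *Cxcr2*, *Ly6g*, *Lyz2*, *Col1a1*, *Col1a2*, *Col3a1* and genes overlapping a member were named after their values were seen. So were *Cdk4*, *Cdk6*, *Ccnd2* and *Ccnd3*. Promoter sequences are RefSeq's. Alternatives were other pseudocounts, filters and normalizations, array weights, a replicate block, and leaving out each library. Figures were drawn with matplotlib 3.10.9.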

Additional observations from a re-analysis of the deposited data

How the results depend on the processing

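Count models planned as alternatives (edgeR and DESeq2) were not run. The values of every library are whole multiples of a step, but the step of WT3, 0.9985, lies so close to 1 that its values were not accepted as recovered reads. At an adjusted p under 0.05 from limma, 0 genes were lower and 0 higher, also with other pseudocounts, a mean of at least 50, quantile or TMM scaling. With no filter on low values these counts were 23 and 7, and with array weights 369 and 262. Leaving out 1 library gave 0 to 52 lower genes, most without cKO2, where 70 were higher (range 0 to 70). Without cKO1 they were 22 and 2.

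The activator minus repressor difference was -0.055 and ranged from -0.083 to -0.041 when 1 library was left out. The G1/S median ranged from -0.64 to -0.51 and the number of G1/S genes lower at an unadjusted p under 0.05 from 37 to 43. The log2 ratio of the G1/S to the G2/M sum differed by -0.52 between genotypes, by -0.71 with array weights and by -0.61 to -0.40 when 1 library was left out. The G2/M median, 0.0060, was 0.12 with array weights, -0.042 without cKO3 and -0.017 without WT1 (range -0.042 to 0.056).

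*E2f1* ranged from -1.02 to -0.70, *E2f7* from -1.01 to -0.59 and *E2f8* from -1.26 to -1.001 over 15 alternatives, including the ratio to *Mki67*. *Rb1* was at 0.0065 with array weights, 0.0051 without cKO1, 0.031 without WT3 (-0.032 without WT1) and 0.098 relative to *Mki67*, and *E2f5* at 0.032 relative to *Mki67*. Alternatives for lists, for the G1/S to G2/M ratio and for the ratio to *Mki67* were chosen after seeing the data. The causes were not tested.

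Same-numbered libraries did not deviate together (correlations -0.029, -0.090 and -0.056 for replicates 1, 2 and 3). With 3 libraries per genotype, these values cannot tell whether the numbers pair the mice. With the replicate number as a block, 0 genes were lower and 0 higher at an adjusted p under 0.05, and 1052 and 1204 at an unadjusted p.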
